A study of Mus musculus with 10 samples.

Results

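The step from 6 h to 12 h of GATA1 activation was examined in ATAC-seq peak lists of G1E-ER4 cells. ATAC-seq uses a transposase that cuts and tags DNA wherever chromatin is accessible, and a peak marks a stretch that was tagged often. G1E-ER4 is a subclone of G1E, a mouse erythroid line without functional Gata1, and it carries GATA1 fused to an estrogen receptor domain, which β-estradiol switches on. All 4 libraries compared came from cells in 1e-07 M β-estradiol, 2 libraries at 6 h and 2 at 12 h, in medium with stem cell factor and erythropoietin, with about 50000 cells tagmented per library. The series holds 6 further libraries, 2 each at 0 h (no estradiol), 2 h and 24 h, which were used only to follow the regions that changed. The cells are a single engineered clone, and the released GATA1 comes from a transgene and not from the native gene.

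Each deposited list gives the summits of 1 library with a score, the −log10 of the q-value that the peak caller MACS assigned in that library. The lists were reduced to the 13826 best-ranked summits, the size of the smallest of the 4, and summits extended by 250 bp on each side were merged into 20552 regions. A region was called gained when both 12 h lists had it and neither 6 h list did, and lost in the reverse case. This gave 399 gained and 436 lost regions, 835 of 20552 in all, or 1.94% and 2.12% of the regions. These shares are the background against which the subsets below are read, unless another is named.

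GATA1 is the zinc finger factor that drives late red cell development. It binds short GATA motifs, often beside an E-box held by the TAL1 complex, at enhancers and promoters of globin, heme and membrane genes, and it takes over sites that GATA2 occupies in progenitors, as at Kit. Opening of chromatin at such sites is read as a new ATAC-seq peak, and closing as a lost one.

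The sequences of 11 changed regions follow, each 200 bp centred on the region and read from GRCm38 (mm10) on the plus strand. GATA motifs (AGATAA or TGATAA, shown as TTATCT or TTATCA when on the other strand) are in capitals. The first 5 are the best-ranked lost regions that were also listed in every 0 h and 2 h library and in no 24 h library, and they show the motif found in most regions of that course. Gif, Gemin6 and Kifap3 hold 1 motif each, Tmem86a 2 and Amot 3, and the motif of Kifap3 lies in a TAL1-GATA composite (the letters CTG followed, after a spacer of 7 or 8 bases, by AGATAA or TGATAA on the same strand, read on either strand).
Tmem86a, lost, chr7:47059509-47059708: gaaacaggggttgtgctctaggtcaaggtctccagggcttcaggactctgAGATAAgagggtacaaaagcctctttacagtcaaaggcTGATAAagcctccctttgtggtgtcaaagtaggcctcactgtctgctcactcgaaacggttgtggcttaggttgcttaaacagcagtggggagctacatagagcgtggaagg
Amot, lost, chrX:146110746-146110945: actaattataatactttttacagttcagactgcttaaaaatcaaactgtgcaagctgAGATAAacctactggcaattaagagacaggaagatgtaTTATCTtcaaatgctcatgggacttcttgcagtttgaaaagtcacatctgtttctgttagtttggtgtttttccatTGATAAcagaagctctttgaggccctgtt
Gemin6, lost, chr17:80221335-80221534: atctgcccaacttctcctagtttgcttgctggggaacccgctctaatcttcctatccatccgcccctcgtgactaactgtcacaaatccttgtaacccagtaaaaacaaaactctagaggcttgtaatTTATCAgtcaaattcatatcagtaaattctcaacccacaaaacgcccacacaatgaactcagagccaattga
Gif, lost, chr19:11726029-11726228: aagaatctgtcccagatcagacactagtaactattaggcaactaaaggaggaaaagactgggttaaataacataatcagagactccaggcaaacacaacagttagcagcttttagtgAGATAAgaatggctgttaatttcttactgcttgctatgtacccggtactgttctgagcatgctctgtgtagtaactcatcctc
Kifap3, lost, chr1:163835191-163835390: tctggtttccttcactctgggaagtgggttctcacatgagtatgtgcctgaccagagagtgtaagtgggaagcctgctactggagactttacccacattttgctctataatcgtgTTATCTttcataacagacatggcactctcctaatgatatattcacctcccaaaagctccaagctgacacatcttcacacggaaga
The next 3 are those with a GATA motif among the 6 gained regions of the opposite course, absent at 0 and 2 h and listed in both 24 h libraries. Minos1 and Fam234b hold the composite as well.
Minos1, gained, chr4:139116477-139116676: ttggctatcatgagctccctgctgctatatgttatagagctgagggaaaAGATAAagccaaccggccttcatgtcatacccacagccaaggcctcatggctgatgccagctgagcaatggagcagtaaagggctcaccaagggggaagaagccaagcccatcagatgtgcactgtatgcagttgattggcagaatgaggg
Fam234b, gained, chr6:135196677-135196876: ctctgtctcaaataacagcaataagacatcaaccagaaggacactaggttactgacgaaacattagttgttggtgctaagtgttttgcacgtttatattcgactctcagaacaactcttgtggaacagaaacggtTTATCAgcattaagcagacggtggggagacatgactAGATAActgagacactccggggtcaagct
Morn1, gained, chr4:155107954-155108153: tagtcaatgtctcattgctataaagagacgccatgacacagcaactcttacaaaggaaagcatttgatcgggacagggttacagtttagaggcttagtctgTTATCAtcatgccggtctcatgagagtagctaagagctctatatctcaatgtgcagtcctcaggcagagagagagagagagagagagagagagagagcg
The last 3 lie nearest to genes that the text describes further on. Vcl had the best rank of the lost regions absent from the full 12 h lists, the Foxo3 region holds 2 GATA motifs, and in the Jak2 region 2 motifs overlap by 1 base and are shown as 1 run of capitals.
Vcl, lost, chr14:20917109-20917308: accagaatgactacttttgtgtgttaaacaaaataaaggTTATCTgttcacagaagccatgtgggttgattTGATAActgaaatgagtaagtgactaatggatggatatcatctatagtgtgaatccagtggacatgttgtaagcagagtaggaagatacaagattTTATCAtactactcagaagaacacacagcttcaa
Foxo3, gained, chr10:42244535-42244734: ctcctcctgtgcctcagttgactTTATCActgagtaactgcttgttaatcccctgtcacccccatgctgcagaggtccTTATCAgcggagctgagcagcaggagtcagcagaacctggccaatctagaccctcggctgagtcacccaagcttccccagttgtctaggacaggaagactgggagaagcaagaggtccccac
Jak2, lost, chr19:29203436-29203635: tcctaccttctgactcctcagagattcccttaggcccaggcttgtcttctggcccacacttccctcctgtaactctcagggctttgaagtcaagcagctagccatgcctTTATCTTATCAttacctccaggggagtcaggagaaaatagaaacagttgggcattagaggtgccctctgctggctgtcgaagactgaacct

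The 4 lists differed in size before they were made equal. They held 14210 and 19855 summits at 6 h and 15419 and 13826 at 12 h, and since no read totals accompany them, depth is unknown. The mean number of summits at 6 h was 17033 ± 3992 (SD, n = 2), that at 12 h was 14623 ± 1126 (SD, n = 2), and the exact permutation test (two-sided) gave p = 0.667, where 2 against 2 libraries allow no p below 0.333. Median scores were 5.77 and 7.68 for the 6 h libraries, against 5.74 and 7.36 for those of 12 h. The lowest score kept was 2.42 in 6 h replicate 1, 5.14 in 6 h replicate 2 and 3.09 in 12 h replicate 1, with the next summit left out at the same rounded score each time, and 1.3 in 12 h replicate 2, whose list was kept whole. The most alike libraries were of different times. The share of regions in both lists among those in either (Jaccard index) was 0.605 for the 6 h pair and 0.577 for the 12 h pair, and from 0.580 to 0.656 across the times, highest between 6 h replicate 2 and 12 h replicate 2. Of the 3080 regions in exactly 2 of the 4 lists, 835 were divided by time, 1390 by replicate number and 855 by neither, so the division by time held the fewest.

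Promoters of the receptor genes Epor (the erythropoietin receptor) and Tfrc (the transferrin receptor) were listed in all 4 libraries. No summit lay within 1 kb of a start of Slc4a1 (band 3), Alas2 or Hbb-bs at either time, and Klf1 had one in 6 h replicate 1 only. Hba-a1 had none either, but only reads with a unique position were kept, so the near-identical globin copies cannot be read in these lists. None of the 4 mast cell, 4 myeloid or 4 lymphoid markers had a promoter summit in any of the 4 lists. Gp1ba of 4 megakaryocyte markers and Col1a1 of 4 fibroblast markers had one in all 4.

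Most changed regions were weak peaks. The poorer of the 2 ranks in the listing libraries had a median of 11862 for gained and 12189 for lost regions, out of 13826. For the 8095 regions in all 4 lists the poorest of 4 ranks had a median of 7475. In 304 gained regions (76.2%) and 347 lost regions (79.6%) the poorer rank fell in the last 25% of the list. The calls also depended on where the longer lists were ended. Below that rank 6 h replicate 2 still listed 234 of the 399 gained regions (58.6%), and 6 h replicate 1 listed 13 (3.26%). In 111 of those 234 the 6 h replicate 2 score was above the lower of the 12 h scores, and in 27 it was above both. Among lost regions, 59 (13.5%) were listed below the limit in 12 h replicate 1. With absence required in the full lists, 160 gained and 377 lost regions remained.

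**Figure D1:**
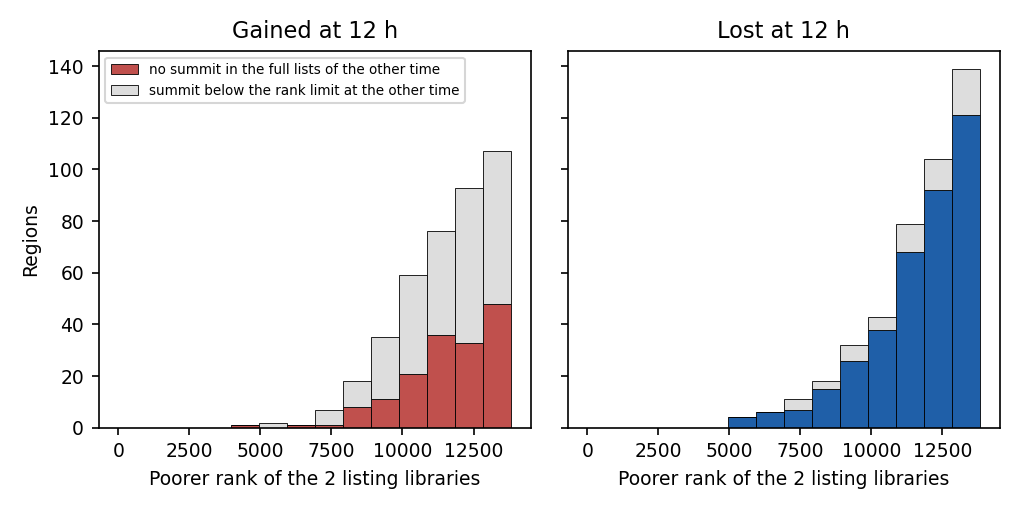
Number of gained (left) and lost (right) regions by the poorer of their ranks in the 2 listing libraries, where rank 1 is the highest score and 13826 the limit. Coloured parts are the 160 gained and 377 lost regions with no summit in the full lists of the other time point, grey parts those with a summit below the limit, and both distributions pile up at the poorest ranks.

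Regions nearest to the limit show how narrow some calls were. At the Runx1 promoter, which codes for a factor of blood stem cell and megakaryocyte development, the scores were 5.03 and 4.50 at 12 h, and 6 h replicate 2 listed it at 5.08, just under its limit of 5.14. At the promoter of Mpp1, the membrane skeleton protein p55, 6 h replicate 2 scored 5.13 and the 12 h libraries 4.22 and 11.8. On the inner side, the gained region 67.5 kb from Ets2 held rank 13801 in 12 h replicate 2 with a score of 1.43, and the lost region at Dmtn held rank 13695 in 6 h replicate 2 with 5.19.

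Among gained regions absent from both full 6 h lists, the 10 with the best poorer rank lay nearest to Kmt2c, Agbl5, P4ha3, D1Ertd622e, Gsdmc, Pdcd1lg2, Atg4d, March5, Phactr4 and Nbr1. The Agbl5 region (chr5:30887249-30887799, intergenic, 1.33 kb upstream) scored 14.7 and 7.53 at 12 h and was also listed at 0 h and 2 h. The region at the promoter of Atg4d, a protease that processes autophagy proteins (chr9:21264110-21264727), scored 7.78 and 6.08 at 12 h. It held a GATA motif in a TAL1-GATA composite and scored 9.0 in 24 h replicate 1, 5.51 in 0 h replicate 1 and 9.06 and 2.56 at 2 h, so the absence was seen at 6 h and in 1 library each of 0 h and 24 h. Nbr1, whose product carries cargo into autophagosomes, had a gained promoter region (chr11:101551678-101552353) with 5.16 and 8.62 at 12 h. The region in an intron of P4ha3 (chr7:100316938-100317472, 31.7 kb from the start), a collagen prolyl hydroxylase, scored 7.31 and 7.16 at 12 h, 3.63 and 3.28 at 24 h and 5.07 in 2 h replicate 2. All 10 of these regions were listed in at least 1 library of 0 or 2 h.

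The 10 lost regions chosen the same way lay nearest to Vcl, Eif2ak2, Tmem86a, Kmt2c, Amot, Ube2d2a, Ptprj, Asb17, Wdr7 and Atf7ip. The Vcl region (chr14:20916889-20917526, intergenic, 12.2 kb upstream of the gene of vinculin, which links integrins to actin) scored 7.06 and 13.9 at 6 h. It was also listed at 9.21 and 10.6 at 0 h and at 8.33 in 2 h replicate 2, and in no library of 12 or 24 h. The promoter of Eif2ak2, the double-stranded RNA kinase PKR (chr17:78882307-78882940), scored 8.44 and 13.4 at 6 h but was listed again at 24 h at 3.56 and 3.5. The Ptprj region (chr2:90474788-90475402, intronic), at a receptor tyrosine phosphatase, scored 6.06 and 12.2 at 6 h and came back at 3.03 and 4.26 at 24 h. The loss at 12 h was therefore followed by a listing at 24 h in several of the best-ranked regions and by none in others.

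At Kmt2c, a histone H3 lysine 4 methyltransferase, both calls fell side by side. The lost region in the promoter (chr5:25498958-25499471) and the gained region 1.01 kb upstream of the start (chr5:25499509-25500009) were 37 bases apart. Their scores were 9.93 and 13.0 at 6 h and 7.74 and 10.3 at 12 h, so each time point had a summit there, at another position. Near Kidins220 a lost and a gained region were 22 bases apart in the same way. A summit of the other time point lay within 1 kb of 54 gained (13.5%) and 41 lost regions (9.40%).

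Changed regions lay mostly away from promoters. Of the gained regions 94 (23.6%, exact binomial 95% interval 19.5% to 28.0%) and of the lost regions 102 (23.4%, 19.5% to 27.7%) were within 1 kb of a protein-coding start. These shares moved with the libraries used. Without 6 h replicate 2 the gained share was 41.7% (45.6% over all regions of those 3 lists), and without 12 h replicate 2 the lost share was 46.8%, above the 45.2% over all regions. With all lists at the size of the smallest of the 10 the lost share was 39.6% (52.1% over all regions). In the 4 lists as first described, the share over all regions was 43.6%, over the regions in all 4 lists 71.1% and over the 6381 regions in a single list 15.4%. Gained regions were intronic in 42.9% and intergenic in 31.1%, and lost regions in 35.1% and 37.8%. The gained regions had a median distance of 11291 bp to the nearest start and the lost regions 10657 bp. Mean GC content of the central 200 bp was 53.3% ± 8.85 (SD over 399 regions) and 53.2% ± 10.1 (SD over 436), against 56.4% ± 10.6 over all 20552. In place and base composition the gained and lost regions were thus close to each other, and they lay between the regions in a single list and those in all 4. Regions are not independent of each other, and the intervals cover counting of regions only.

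The 6 libraries of other times were not used for the calls. Lost regions were listed in 44.3% and 33.3% at 0 h and in 45.2% and 47.7% at 2 h, and in 37.2% and 21.8% at 24 h. Gained regions were listed in 39.1% and 25.1% at 0 h, in 41.1% and 36.1% at 2 h and in 41.9% and 24.8% at 24 h. The mean for lost regions was 42.6% ± 6.40 (SD, n = 4) before and 29.5% ± 10.9 (SD, n = 2) at 24 h, a difference of −13.1 percentage points (exact permutation p = 0.267, two-sided). For gained regions it was 35.3% ± 7.15 (SD, n = 4) and 33.3% ± 12.1 (SD, n = 2), a difference of −2.01 points (exact permutation p = 1). Over all regions the difference was −4.62 points, and the list of 24 h replicate 2 was the shortest of the series with 10697 summits. Neither difference passed, and with 4 against 2 libraries the smallest p possible is 0.133.

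Lost minus gained compares both classes within the same list. This difference was 5.17, 8.19, 4.08 and 11.6 points in the 0 and 2 h libraries, where lost regions were always the more often listed, and −4.70 and −3.02 points in the 24 h libraries, where gained regions were. The groups did not overlap (7.26 ± 3.38, SD, n = 4, against −3.86 ± 1.18, SD, n = 2), and the exact permutation p of 0.133 (two-sided) is the smallest that 4 against 2 libraries can give. With all lists at the size of the smallest of the 10, or with absence required in the full lists, 1 of the 2 libraries of 24 h kept the negative sign. This measure was chosen after the shares had been seen.

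**Figure D2:**
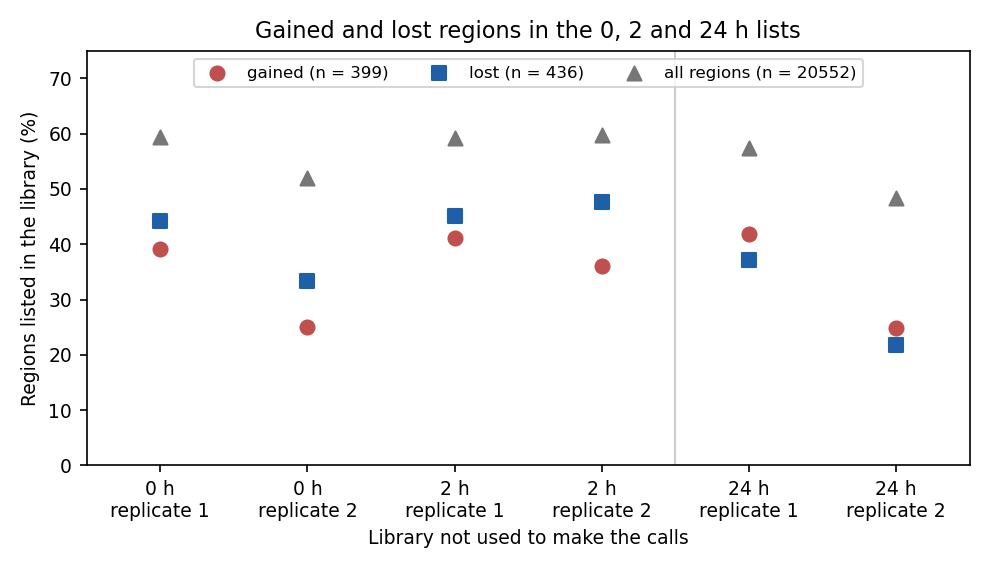
Percent of gained (red circles, n = 399), lost (blue squares, n = 436) and all regions (grey triangles, n = 20552) listed in each of the 6 libraries that were not used for the calls, with 1 point per library and lists held to at most 13826 summits. Lost regions lie above gained ones in all 4 libraries of 0 and 2 h and below them in both 24 h libraries, and both classes lie below all regions throughout.

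Most members varied across the course without a clear direction. In the full lists, 341 gained and 338 lost regions had mixed listings in the other 6 libraries, and 35 gained and 52 lost regions were in none of them. Only regions in both lists of a time point can be called, so the background here is 436 lost of the 10192 regions in both 6 h lists. For gained regions it is 399 of the 9829 regions in both 12 h lists. Both 6 h lists and the 4 full lists of 0 and 2 h shared 7375 regions, of which 59 (0.80%) were lost at 12 h. A peak listed in both 6 h lists and in no library of 0 or 2 h was lost at 12 h in 82 of 161 cases (50.9%). A peak in both 12 h lists and in no 24 h library had been gained at 12 h in 162 of 632 cases (25.6%), and one in both 24 h lists in 56 of 7371 (0.760%). Ranks were not compared between these sets, and the part of peak strength in these shares was not tested.

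A smaller set was listed up to 6 h and not afterwards, as read from the full lists of the other times. Of the lost regions, 34 were listed in each of the 4 libraries of 0 and 2 h but in no 24 h library, and 33 of them were absent from the full 12 h lists as well. The exception was a region in an intron of Atp6v1c1, a proton pump subunit, with 2.49 in 12 h replicate 1. These 34 lay on 17 chromosomes, 3 at promoters, 14 in introns, 1 in an exon and 16 between genes, and 21 were over 10 kb from a start. Their median score was 6.03 and 5.82 in the 0 h libraries, 4.40 and 5.67 in those of 2 h and 4.22 and 8.04 in those of 6 h. In 19 of the 34 the score of 6 h replicate 2 was above every score of 0 and 2 h, and 6 h replicate 2 also had the longest list of the 4. The opposite course, from no listing at 0 and 2 h to both 24 h libraries, was seen in 6 gained regions. Courses that turned back were 10 gained regions listed in all 0 and 2 h libraries and in no 24 h library, and 4 lost regions absent at 0 and 2 h and listed in both 24 h libraries. The share of all regions with each course is not given here, so these counts have no background. The list of 24 h replicate 2 was the shortest of the series (10697 summits), and its part in these counts was not tested.

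The best-ranked of the 34 lay 9.01 kb from Tmem86a, a gene of the lysoplasmalogenase family (chr7:47059345-47059870, intergenic). The 0 h libraries gave it 11.3 and 6.34, those of 2 h 5.93 and 6.36, and those of 6 h 6.75 and 15.1. The region nearest to Amot, a scaffold protein of the Hippo pathway, was 606 kb away (chrX:146110556-146111134) and scored 9.28 and 4.46 before estradiol, 3.67 and 4.86 after 2 h and 7.07 and 12.5 after 6 h. At Gemin6, a protein of the SMN complex (chr17:80221134-80221734, 3.01 kb from the start), the 0 h libraries scored 6.11 and 6.1, the 2 h libraries 6.48 and 5.5 and the 6 h libraries 6.73 and 10.3. The Gif region (chr19:11725856-11726400, 21.4 kb from the gene of gastric intrinsic factor) scored 5.54 and 9.96 at 6 h. The Kifap3 region (chr1:163834985-163835596, intronic), at a kinesin adaptor, scored 5.30 and 13.4. None of these 5 had a summit in any library of 12 or 24 h.

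Other regions of this course lay near genes with roles in differentiation or stress, named here after their values were seen. The region 11 kb from Xbp1, a factor of the unfolded protein response (chr11:5509359-5510001), had scores of 13.1 and 9.25 before estradiol, 8.98 and 6.91 after 2 h and 8.65 and 8.04 after 6 h. The region 4.31 kb from Id3, an inhibitor of E-protein factors (chr4:136147545-136148077), scored 3.27 and 5.86, 3.54 and 5.64, and 7.49 and 6.57 at the same times. In an intron of Prdx3, a mitochondrial peroxidase (chr19:60872192-60872767), the scores were 12.7 and 7.05, 4.09 and 5.03, and 3.16 and 7.61. For Sptssa, a subunit of serine palmitoyltransferase (chr12:54643463-54643999, 12.8 kb from the start), they were 13.7 and 12.4, 4.94 and 11.9, and 3.06 and 8.04. Another region nearest to Xbp1 was gained at 12 h.

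The 6 gained regions of the opposite course had low scores. They lay near Add3, Morn1, Tram1, Minos1, Fam234b and Dct, and 5 of them, all but Dct, were listed in 6 h replicate 2 below its limit at 2.98 to 4.36. The Morn1 region (chr4:155107769-155108337, intronic) went from no listing at 0 and 2 h to 2.98 in 6 h replicate 2, 3.98 and 6.90 at 12 h and 4.47 and 9.50 at 24 h. At Add3, the gene of the membrane skeleton protein gamma-adducin (chr19:53247889-53248457, 53.2 kb away), the scores were 3.13 in 6 h replicate 2, 4.50 and 4.65 in the 12 h libraries and 3.12 and 3.94 in those of 24 h. The Minos1 region (chr4:139116262-139116890, intronic) scored 3.79 in 6 h replicate 2, 3.54 and 4.21 at 12 h and 5.46 and 2.68 at 24 h. Near Dct, named after its values were seen (chr14:118089061-118089666) they were 3.16 and 3.31 at 12 h and 2.27 and 3.91 at 24 h.

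**Figure D3:**
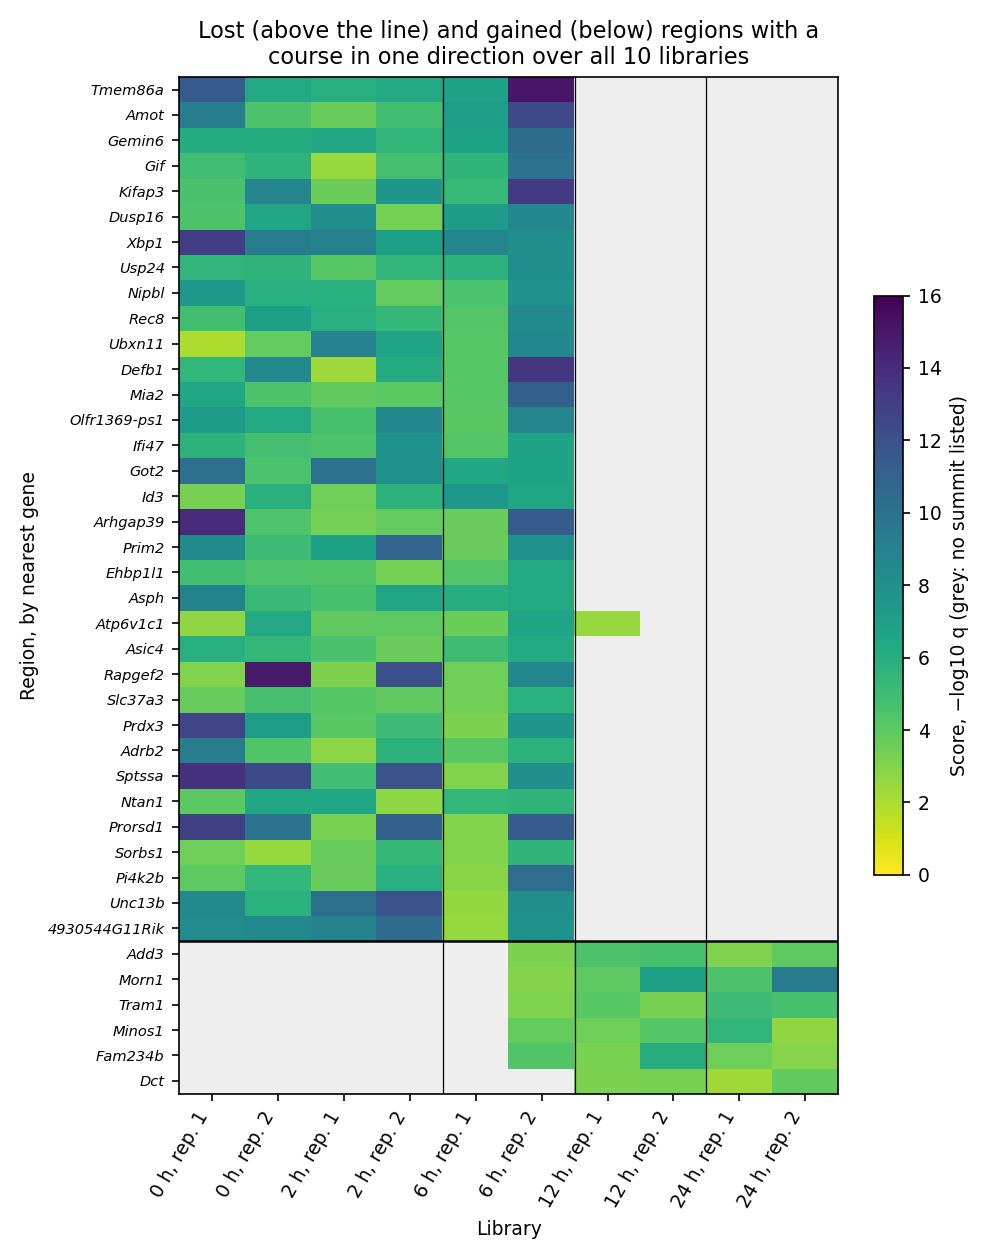
Score (−log10 q, colour) of the 34 lost regions listed in all 0 and 2 h and no 24 h libraries (above the line) and of the 6 gained regions with the opposite course (below it) in each of the 10 libraries, 1 row per region named by its nearest gene, grey where no summit was listed. Among the lost regions only Atp6v1c1 has a summit after 6 h, whereas 5 of the 6 gained regions already have a low one in 6 h replicate 2.

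The GATA motif was in 136 of 399 gained regions (34.1%, exact binomial 95% interval 29.4% to 39.0%) and in 154 of 436 lost regions (35.3%, 30.8% to 40.0%), against 24.9% of all regions. Most of that gap went with position. Away from promoters the shares were 40.3% of 305 gained and 43.4% of 334 lost regions, beside 39.6% of all 11584 such regions, 48.3% of those in all 4 lists and 32.9% of those in a single list. The TAL1-GATA composite was in 7.21% of gained and 10.2% of lost regions away from promoters, beside 8.47% of all such regions. In the 34 regions listed up to 6 h only the GATA share was higher. Of these, 27 held a GATA motif (79.4%, 62.1% to 91.3%), 15 held at least 2 and 8 held the composite (23.5%, 10.7% to 41.2%). In the 31 of them away from promoters the GATA share was 80.6% (62.5% to 92.5%) at a mean GC content of 45.3% ± 8.14 (SD over 31 regions), beside 46.3% of the 1301 regions in all 10 full lists, where mean GC content was 54.0% ± 8.4 (SD). The part of base composition in that gap was not tested. In the same 31 regions the composite share was 25.8% (11.9% to 44.6%). It was 15.3% in those 1301 regions and 13.8% in the regions in all 4 lists away from promoters, and both shares lie inside that interval. The 10 gained regions present at 0 and 2 h and absent at 24 h held the GATA motif in 6 cases, the 6 gained regions of the opposite course in 3, and the 35 gained and 52 lost regions listed at no other time in 14.3% and 17.3%. Of the 7 gained regions listed in all 6 other libraries 5 held the motif, and of the 8 such lost regions 1 did.

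**Figure D4:**
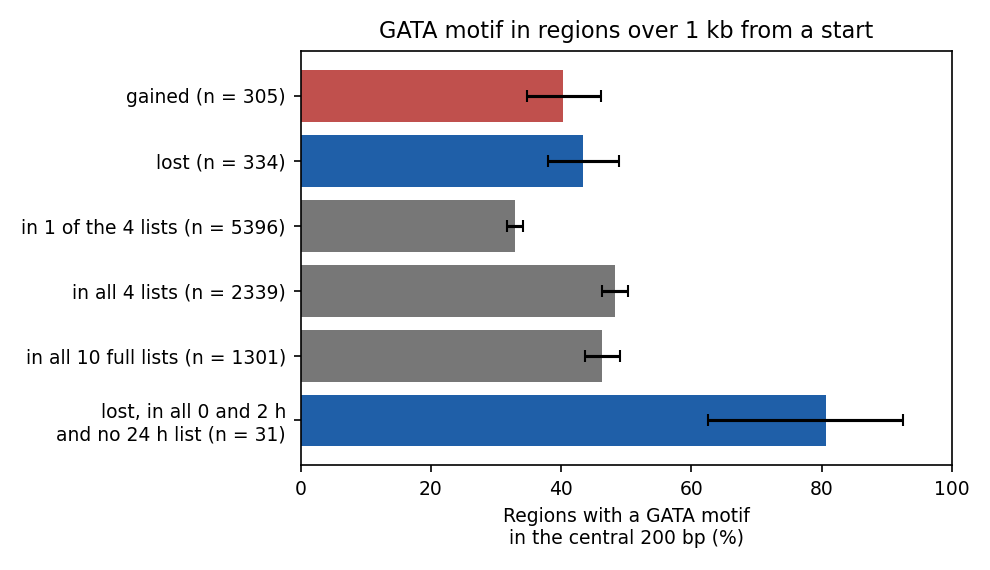
Percent of regions over 1 kb from a protein-coding start with a GATA motif in the central 200 bp, with exact binomial 95% intervals as error bars. Gained (40.3%) and lost regions (43.4%) lie between the regions in a single list (32.9%) and in all 4 lists (48.3%), and the 31 lost regions listed up to 6 h only reach 80.6%.

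Other motifs were near the share over all regions away from promoters. Letters were read on either strand in the same 200 bp. The ETS motif (AGGAAG or CGGAAG) was in 33.1% of gained and 30.5% of lost regions, beside 34.6% of all such regions. The RUNX motif (TGTGGT or TGCGGT) was in 26.9%, 21.0% and 23.4% in the same order. For KLF (CCNCNCCC) the shares were 23.9%, 24.9% and 26.0%, and for the E-box (CAGATG or CAGCTG) 29.2%, 29.0% and 30.5%. AP-1 (TGACTCA or TGAGTCA) was in 8.20%, 6.59% and 6.76%, and CTCF in 6.89%, 8.68% and 7.45%. None of the 34 regions listed up to 6 h only held the CTCF motif, which allows a share of up to 10.3% (exact binomial 95% limit).

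Genes of erythroid and related programmes were read through 19 lists of genes, with a region counted for its nearest protein-coding start within 100 kb. Of all 19517 regions so assigned 1.95% were gained and 2.12% lost. Regions at list genes came to 19 gained and 16 lost, of which 5 and 13 were absent from the full lists of the other time point. No list had more than 4 members in a direction.

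Among effector genes of the red cell, none of the 5 regions near globin genes and none of 45 near iron genes changed. Of 39 regions near heme synthesis genes 2 were lost and none gained. One of them, in an intron of Uros, the gene of uroporphyrinogen III synthase (chr7:133702236-133702772), was listed in every library of 0 and 2 h, scored 3.97 and 5.55 at 6 h and was back at 9.19 in 24 h replicate 1. Of 40 regions near membrane skeleton genes 3 were gained (Tmod1, Ank1 and the Mpp1 promoter) and 1 lost (Dmtn). The Dmtn region (chr14:70623943-70624480, intronic), at the gene of the actin-bundling protein dematin, was in no library of 0 or 2 h, scored 7.83 and 5.19 at 6 h, was in neither 12 h list and scored 3.38 and 4.54 at 24 h. Of 48 regions near red cell surface genes 2 were gained (Rhd and the Cd24a promoter) and 2 lost (Slc2a1 and Cd44). Rhd, the Rh blood group protein, had an intronic region (chr4:134879353-134879867) with 3.16 and 3.01 at 12 h and 4.10 in 24 h replicate 1, listed in no library before 12 h.

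Among transcription factors, 3 of 79 regions near genes of the GATA and TAL1 complex were gained and none lost. They were the Runx1 promoter and 2 regions at Cbfa2t3, the corepressor ETO2 that binds the TAL1 complex. The Cbfa2t3 promoter region (chr8:122678660-122679170) scored 5.31 and 2.27 at 12 h and 3.66 in 6 h replicate 2, and the intronic one (chr8:122711881-122712500) scored 6.65 and 6.78 at 12 h and 4.57 in 6 h replicate 2. All 3 were thus listed at 6 h below the limit. Of 34 regions near KLF and SP genes 2 were gained (Sp1 and Klf9) and 2 lost, both 72.9 to 75.5 kb upstream of Klf13. Of 21 regions near ETS genes 1 was gained (Ets2), and of 19 near Nfe2, small Maf and Bach genes none changed.

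Near genes of erythropoietin and cytokine signalling 3 of 60 regions were gained and 4 lost. The gained ones lay nearest to the receptor Kit, to Csf2rb, a shared receptor chain of interleukin 3 and related cytokines, and to Dok1. Dok1 is an adaptor that dampens kinase signals, and its region lay 28.4 kb from the start. Each gene was assigned by distance alone. The Kit region (chr5:75624100-75624674, 49.4 kb from the start) scored 3.56 and 10.4 at 12 h, 3.30 in 6 h replicate 2 and 5.13 and 3.13 at 24 h. Csf2rb (chr15:78339955-78340483, intronic) scored 7.03 and 9.11 at 12 h and 3.38 in 6 h replicate 2. The lost ones lay nearest to the kinase Jak2, to Stat5b, the factor it activates, and to Pim1 and Socs1, which are targets of STAT5. The Jak2 region (chr19:29203279-29203791, 48.3 kb from the start) scored 6.14 and 6.38 at 6 h, and was in no library of 0, 2 or 12 h and at 5.58 in 24 h replicate 1. The Stat5b promoter region (chr11:100850133-100850721) scored 3.73 and 8.97 at 6 h and 6.89 in 0 h replicate 1, and the Pim1 region (chr17:29438327-29438903, 52.1 kb upstream) 4.16 and 9.36 at 6 h with 3.67 and 6.01 at 24 h. The Socs1 region, 53.0 kb from the start, scored 4.37 and 7.62 at 6 h and was listed below the limit in 12 h replicate 1 at 2.27.

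Of 40 regions near apoptosis and autophagy genes 3 were gained and none lost. The Foxo3 region (chr10:42244350-42244919, intronic), at a forkhead factor that acts with GATA1 in late erythroblasts, scored 8.54 and 8.74 at 12 h, 4.70 in 6 h replicate 2 and 7.76 and 3.93 at 0 h. The region in an intron of Bcl2l1, the survival factor BCL-XL (chr2:152814175-152814764), scored 4.61 and 5.0 at 12 h and 6.23 and 6.38 at 24 h, was in neither full 6 h list, and was listed at 5.21 in 0 h replicate 2 and 3.43 in 2 h replicate 2. The region nearest to Bcl2l11, the pro-apoptotic BIM (chr2:128085343-128085857, 40.4 kb upstream of the start), was listed at 12 h alone, at 4.22 and 2.83. The Map1lc3b promoter, of an autophagosome protein, had a summit within 1 kb in both 6 h lists and neither 12 h list. Of 52 regions near proliferation genes 1 was gained (Ccnd2, cyclin D2) and 1 lost (the promoter of Cdkn2c, a cyclin-dependent kinase inhibitor).

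Near genes of other lineages few regions were listed at all. Of 19 regions near mast cell genes 1 was lost (Csf1), of 11 near myeloid genes 1 was lost (Fcgr3), of 3 near fibroblast genes 1 was lost (Pdgfra), and of 18 near megakaryocyte genes none changed. No region was assigned to a lymphoid gene. The genes whose promoters the study captured as activated by GATA1 had 53 regions, with none gained and 2 lost (3.77%, Tmem184a and Dmtn). The 19 listed genes of those captured as repressed had 51 regions, with 2 gained (3.92%, Kit and Sept9) and none lost. All of these changed regions but Dmtn were still listed below the limit at the other time. Tmem184a scored 2.99 in 12 h replicate 1, and Kit 3.30 and Sept9 3.58 in 6 h replicate 2. The 12 h scores of Sept9 were 3.88 and 3.71. The study chose these genes in the same cells. It read ATAC-seq signal at the captured promoters and at regions that interacted with them. Regions here lay anywhere within 100 kb of a start, so the measures are unlike.

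Members were spread over 790 nearest genes, and 42 genes had 2 or more. In 18 of these all members changed the same way, as at Cbfa2t3 (2 gained) and Klf13 (2 lost). The 3 genes with 3 members, Atxn7l1, Pdcd4 and Zfp217, each had members of both directions. At Pdcd4, which codes for an inhibitor of translation, the gained region 1.31 kb from the start scored 6.38 and 3.75 at 12 h, was in neither full 6 h list, and was in every library of 0 and 2 h with 3.85 and 4.46, then 5.83 and 9.32. The lost region 90.1 kb from the same start scored 5.55 and 5.35 at 6 h.

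Regions present in all 4 lists could change in score without a call. The 8095 such regions were tested with limma on log2 scores after quantile normalisation, and none had a higher (0%) or lower (0%) score at 12 h at an adjusted p under 0.05, the smallest adjusted p being 0.999. At an unadjusted p under 0.05 there were 133, 71 higher and 62 lower. On simulated scores with the mean spread of these libraries, the test found 0.56% of true log2 changes of 1. It found 57.9% of changes of 2 and 94.6% of changes of 3. The simulation gave every region the same SD (0.495 in log2), so recovery with a spread that differs between regions was not measured. The 0 calls therefore do not exclude log2 changes of 1 in shared regions, and how many larger ones would be found in the real scores is unknown. The SD over regions of the log2 change between times was 0.413, against 0.673 for the difference between the 6 h libraries and 0.727 for that between the 12 h libraries. These are not like measures. The change between times is a difference of means of 2 libraries, which lowers its SD, and the others are differences of single libraries. The largest rise by p was at the Dok1 promoter (chr6:83033287-83033911), with scores of 3.19 and 5.57 at 6 h and 8.0 and 12.8 at 12 h, a log2 change of 1.53 ± 0.439 (SE, limma adjusted p = 0.999). The next were regions nearest to Nrip1, Ankrd9, Tnk1 and Peli1, at 1.23 to 1.45. The largest fall by p was at the promoter of Tcirg1, a proton pump subunit (chr19:3906408-3907286), with 10.4 and 18.7 at 6 h and 3.64 and 2.96 at 12 h, a log2 change of −1.78 ± 0.441 (SE, limma adjusted p = 0.999). The promoters of Tulp4, C1qbp and Tor1b and a region near Rnf130 followed at −1.57 to −1.41. In all 5 falls both 6 h scores were above both 12 h scores, and in all 5 rises both were below. Picking regions by the smallest p favours such a separation, and its share over all 8095 regions is not given here. None of these changes was separable from the spread between libraries over the whole table.

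**Figure D5:**
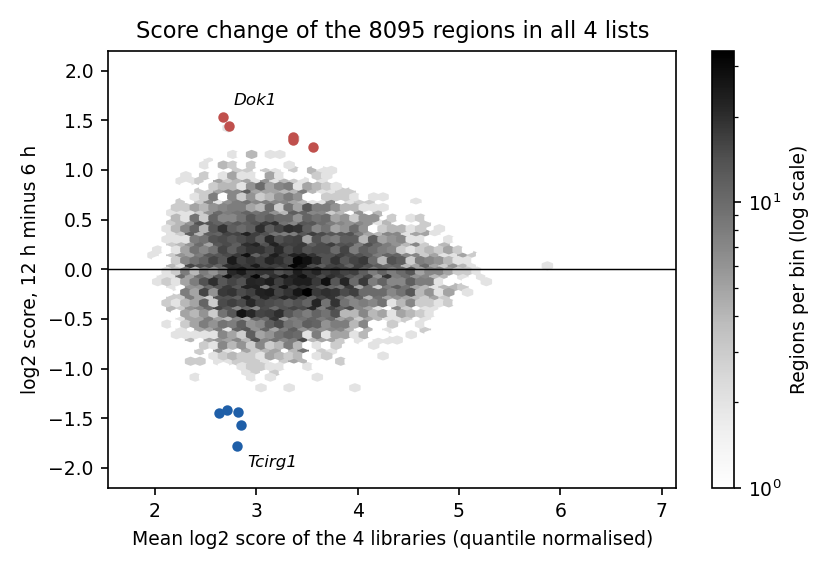
Change of the quantile-normalised log2 score from 6 h to 12 h against its mean over the 4 libraries for the 8095 regions in all 4 lists, shaded by regions per bin, with the 5 highest (red) and 5 lowest (blue) regions by limma p marked. Changes spread evenly around 0, and the marked regions, from 1.53 at Dok1 to −1.78 at Tcirg1, did not pass the adjusted threshold.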

How the data were processed

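ATAC-seq was performed by the authors on about 50000 cells per library. Reads were adaptor-trimmed, aligned to mm10, kept where they mapped uniquely, and given to MACS library by library with its shifting model turned off. Bowtie2 stands in the methods and Bowtie 1.0.0, beside Picard and MACS2, in the submitters' processing notes, so the aligner is not settled. No Tn5 shift is stated. The deposited score is −log10 of the q-value, carries no scaling across libraries, and depends on depth, which is unknown.

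Groups and replicate numbers came from the sample titles, and the 2 libraries of a time point are separate experiments. Summits on chromosomes 1 to 19 and X were used. Rank limit, window and calls are given above. Presence at other times was read from lists of at most 13826 summits (11697 in 0 h replicate 2 and 10697 in 24 h replicate 2, which were shorter) unless full lists are named. GENCODE M21 starts of protein-coding genes defined promoters (1 kb). Motifs were consensus letters in the central 200 bp. Scores of regions in all 4 lists were tested with limma 3.58.1 in R 4.3.3 (Benjamini-Hochberg), shares with exact permutation tests (scipy 1.17.1). The calling step was checked on simulated lists in which no library missed a site, so that check did not cover missed sites or the rank limit. The testing step was checked on simulated scores that had the same SD in every region, with the recovery given above.

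Named regions were the 10 gained and 10 lost regions with the best poorer rank among those absent from the full lists of the other time point, every member nearest to a listed gene, the 5 best-ranked with a course in a single direction over all libraries, and the 5 lowest limma p-values in each direction. Other regions were named after their values were seen. The members, gene lists and rules were chosen with earlier results of these data known. Some items withheld from the text are not reported here.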

Additional observations from a re-analysis of the deposited data

Results flagged for a closer look

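The difference between the share of lost and of gained regions listed in a library had opposite signs before and after the step. It was positive in 4 of 4 libraries of 0 and 2 h (4.08 to 11.6 percentage points) and negative in 2 of 2 libraries of 24 h (−4.70 and −3.02), which made the 24 h mean lower by 11.1 points (a change of −11.1). With all lists at the size of the smallest of the 10, and with absence required in the full lists, 1 of 2 libraries of 24 h stayed negative. The exact permutation p was 0.133 (two-sided), the smallest that 4 against 2 libraries can give, so the difference did not pass and cannot pass a threshold of 0.05 at this number of libraries.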

How the results depend on the processing

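Counts of gained and lost regions depended on list size and on absence. Full lists gave 198 gained and 854 lost regions, and requiring absence from the full lists gave 160 gained. Leaving out 1 library, which loosens the criterion, gave 895 (without 6 h replicate 1) to 2297 (without 12 h replicate 2) gained and 1099 (without 12 h replicate 1) to 2198 (without 6 h replicate 2) lost regions. The replicate block changed none of the 0 limma calls. The counts of gained and lost regions have no paired form, since presence in both libraries of a time point is the same criterion with and without the pairing. The numbers mark no stated shared batch (the differences between replicate numbers at 6 h and 12 h correlated at 0.292 over the 8095 regions). At an unadjusted p under 0.05 the block gave 220 higher and 175 lower regions, with a smallest adjusted p of 0.163. Without any 1 library limma also gave 0 calls (87 to 430 regions at an unadjusted p under 0.05), but such a fit has 1 residual degree of freedom and assumes that the lone library varies like those of the other time point, so it says nothing about stability.

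The promoter share of gained regions was 32.9% with all lists at the size of the smallest of the 10, 35.6% with a 100 bp extension, 19.4% with absence from full lists, 17.8% within 500 bp and 29.6% within 2.5 kb of a start, and 16.9% to 41.7% without 1 library. For lost regions it was 19.3% in full lists, 39.6% at the smallest list size, 32.5% with a 100 bp extension and 28.7% within 2.5 kb, and 17.3% to 46.8% without 1 library. The GATA share of gained regions was 21.6% in 100 bp and 43.6% in 400 bp, and 28.2% to 32.8% without 1 library. For lost regions it was 29.7% at the smallest list size, 40.4% with GATAA, 23.2% in 100 bp and 45.6% in 400 bp, and 27.3% to 35.4% without 1 library. A motif share cannot fall as the window widens. The share over all regions is not given for these settings, so these values do not show whether the gap to all regions held. Differences between 24 h and earlier libraries kept their direction. For lost minus gained the exact permutation p was 0.267 at the smallest list size and 0.133 with absence from full lists.

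Among alternatives added after seeing the data, full lists and absence from full lists, each left 1 gained region of the course from no early listing to both 24 h libraries, instead of 6. The 34 lost regions of the opposite course numbered 26 to 44 under 5 such alternatives, and their GATA share was 64.7% to 91.2% under 7. The limits are unknown depth, 2 libraries per time point and 1-bp summits without widths.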
